A study of Mus musculus with 4 samples.

Results

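Classically activated, or M1, macrophages are the state that microbial products and interferon gamma induce, and 10 genes widely used as its markers were followed in mouse liver: Nos2, Tnf, Il6, Il12b, Cd38, Cd80, Cd86, Irf5, Ptgs2 and Fpr2. They were taken by symbol from a deposited table of 21959 genes, and all 10 symbols occurred there on a single row each. The samples were 2 livers from mice given baicalein, a plant flavone, and 2 livers from mice given saline. All mice were wild type and had ACLF, acute-on-chronic liver failure, in which an acute injury strikes a chronically diseased liver. The labels state no dose, time, age or sex and do not say how ACLF was induced, and no liver without ACLF was analysed here. Whether the livers of a group were from separate animals is not said either, so p-values reflect only how far these samples spread, and that spread may be technical. The series title names macrophage polarization, the question to which these genes belong.

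In this state, Toll-like receptors and the interferon gamma receptor act through NF-kB and interferon regulatory factors to switch on cytokine genes and enzymes that make nitric oxide and prostaglandins. Costimulatory molecules for T cells come to the cell surface as well. In a healthy liver most macrophages are resident Kupffer cells, and monocytes enter on injury. Several of the 10 genes are not restricted to macrophages: B cells and dendritic cells also carry CD80 and CD86, and many cell types express CD38.

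The livers differed in more than the treatment label. Total counts were 14766061 and 18731616 in baicalein 1 and 2, against 17673137 and 13976440 in saline 1 and 2. Albumin led the hepatocyte markers in every liver, with 728837 to 1488378 counts. The summed counts of 4 Y-linked genes were 2 and 1 in the baicalein livers, against 820 and 836 in the saline livers. Treatment therefore cannot be told apart from this Y-linked difference, or from a difference in sex between the groups, in any comparison here. The summed counts of 6 skeletal muscle markers were 13 and 28465 in baicalein 1 and 2, against 87854 and 20 in saline 1 and 2, so 1 liver of each group carried muscle transcripts. Ratios within the pair with muscle transcripts (baicalein 2 over saline 1) and within the pair nearly without them (baicalein 1 over saline 2) are therefore given beside the fits.

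A filter on low counts split the 10 genes into a tested set and a sparse one. Cd38, Cd80, Cd86, Fpr2 and Irf5 had enough reads to be tested, which needed a CPM (reads of the gene per 1000000 counted reads) of at least 0.617 in 2 livers. Nos2, Ptgs2, Tnf, Il6 and Il12b, the enzymes and cytokines by which the state is best known, had 3 to 30 reads over the 4 livers together and at most 11 in any liver. Of the 5 tested genes, 1 rose with baicalein (Cd38, about 2-fold) and none fell, where 7.65% of all 12657 tested genes were called higher and 7.9% lower (edgeR quasi-likelihood test, Benjamini-Hochberg adjusted p below 0.05). At an unadjusted p below 0.05 the same fit gave 2 higher (Cd38 and Cd86) and 0 lower, and DESeq2 and limma-voom each called Cd38 and no other of the 10. An exact permutation test of 2 against 2 livers cannot go below a two-sided p of 0.333, so the adjusted p-values rest on the spread shared across genes.

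**Figure D1:**
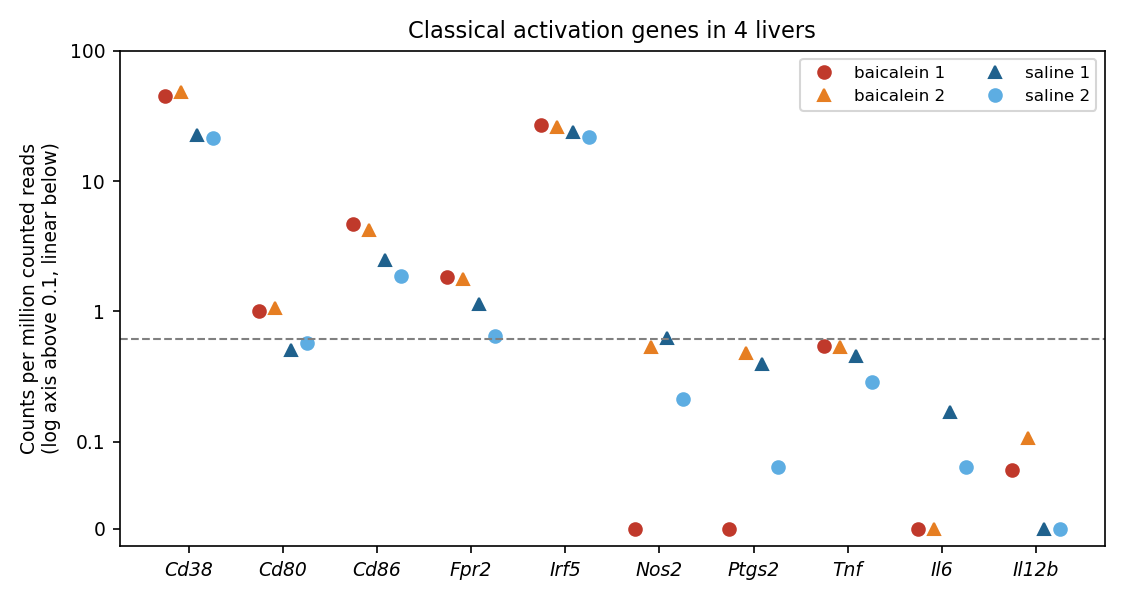
CPM (vertical axis, log scale above 0.1 and linear below) of the 10 genes in each of the 4 livers; triangles mark the 2 livers with muscle transcripts, and the dashed line is the level of 0.617 that 2 livers had to reach for a test. Cd38 and Irf5 lie far above the line, Cd80, Cd86 and Fpr2 near or above it, and Nos2, Ptgs2, Tnf, Il6 and Il12b reach it in 1 liver at most.

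Per length, Cd38 and Irf5 stood highest, with mean deposited FPKM over the 4 livers of 8.80 and 8.48, above 84.2% and 83.8% of all genes in the table. Their order depended on the group. Cd38 averaged 11.9 ± 0.606 FPKM and Irf5 9.10 ± 0.288 FPKM in baicalein livers, against 5.66 ± 0.249 FPKM for Cd38 and 7.86 ± 0.455 FPKM for Irf5 in saline livers (SD, n = 2 each). Fpr2 (mean over the 4 livers 1.04 FPKM) and Cd86 (0.904 FPKM) came next. In saline livers their levels of 0.685 ± 0.266 and 0.594 ± 0.122 FPKM differed by less than the spread between livers. Tnf, Cd80, Nos2, Ptgs2, Il6 and Il12b followed with mean levels of 0.277, 0.214, 0.0772, 0.0518, 0.0248 and 0.0222 FPKM. At such counts the order has little meaning between Tnf and Cd80, between Nos2 and Ptgs2, or between Il6 and Il12b.

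The promoters are shown of Cd38, the gene that rose, and of Il6, a textbook NF-kB target that was nearly silent here. Both are RefSeq windows on GRCm38.p6, plus strand, from 250 bases before to 50 bases after the start site, with Cd38 at chr5:43868559-43868858 and Il6 at chr5:30012864-30013163. RefSeq windows of 8 of the 10 genes were at hand. Capitals mark matches, on either strand, to the NF-kB consensus, to TGANTCA (AP-1) or to TATAAA; none of the marked stretches overlap each other.
Cd38: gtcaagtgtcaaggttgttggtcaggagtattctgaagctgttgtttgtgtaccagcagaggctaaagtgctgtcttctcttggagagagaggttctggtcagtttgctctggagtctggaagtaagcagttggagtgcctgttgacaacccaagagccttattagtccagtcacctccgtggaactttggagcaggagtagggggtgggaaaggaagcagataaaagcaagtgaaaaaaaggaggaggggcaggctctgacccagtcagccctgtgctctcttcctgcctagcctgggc
Il6: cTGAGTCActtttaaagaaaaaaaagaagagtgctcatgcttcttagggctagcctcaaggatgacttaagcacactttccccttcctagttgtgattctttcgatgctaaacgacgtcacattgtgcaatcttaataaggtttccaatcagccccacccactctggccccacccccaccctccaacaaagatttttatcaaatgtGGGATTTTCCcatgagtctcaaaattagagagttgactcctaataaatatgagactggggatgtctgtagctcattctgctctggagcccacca
The Il6 window held GGGATTTTCC, a match to the NF-kB consensus, from position -44 relative to the start site, and TGAGTCA from position -249. The Cd38 window held none of the 3 motifs. In GENCODE M21 (mm10) Cd38 starts at 43868553, before this window, so bases upstream of that start were not searched. Over 32851 mouse windows of this length, 4.51% held the NF-kB consensus, 7.81% TGANTCA and 13.6% TATAAA. Among the 8 windows of these genes, the NF-kB consensus was found in Il6, TGANTCA in Il6 and Cd80, and TATAAA in Cd80, Fpr2 and Tnf. These matches are descriptions of letters and say nothing of which factors were bound in these livers.

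Among the surface molecules, Cd38 (ENSMUSG00000029084, chromosome 5, 44025895 to 44069717) was the gene that changed. It encodes an enzyme at the cell surface that consumes NAD, and in mouse macrophages it is a marker of the classical rather than the alternative state. Its deposited counts were 661 and 901 in the baicalein livers, against 401 and 298 in the saline livers. Scaled to library size, these were 45.5 and 45.0 CPM with baicalein, against 23.6 and 21.7 CPM with saline. The groups did not overlap, and the gap between them was far wider than the gap within either. The log2 fold change was 1.00 (SE 0.10, 95% interval 0.77 to 1.23, adjusted p = 3.75e-04, edgeR). Within the pairs it was 1.91-fold higher in baicalein 2 than in saline 1 and 2.09-fold higher in baicalein 1 than in saline 2.

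Cd80 and Cd86 encode the costimulatory ligands that antigen-presenting cells show to CD28 on T cells. Cd86 (ENSMUSG00000022901, chromosome 16, 36424231 to 36486443) had 69 and 79 counts in the baicalein livers, against 44 and 26 in the saline livers, or 4.74 and 3.94 CPM with baicalein, against 2.59 and 1.90 CPM with saline. Every baicalein value lay above every saline value, yet the log2 fold change of 0.95 (SE 0.33, 95% interval 0.21 to 1.69) did not pass adjustment over all genes (adjusted p = 0.0873, edgeR). Its ratio was 1.52 within the pair with muscle transcripts and 2.50 in the other pair. Cd80 (ENSMUSG00000075122, chromosome 16, 38275923 to 38316697) was sparser, with 15 and 20 counts in the baicalein livers, against 9 and 8 in the saline livers. These correspond to 1.03 and 0.998 CPM with baicalein, against 0.529 and 0.583 CPM with saline. Cd80 reached the level needed for a test in the baicalein livers alone, so its place among the tested genes is tied to its direction. Its log2 fold change was 0.86 (SE 0.58, 95% interval -0.46 to 2.18, adjusted p = 0.372, edgeR), an interval that takes in both no change and a rise larger than that of Cd38.

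Fpr2 (ENSMUSG00000052270, chromosome 17, 18108086 to 18114214) encodes a receptor for formylated peptides of bacteria and mitochondria and for annexin A1. Counts were 27 and 33 in the baicalein livers, against 20 and 9 in the saline livers, or 1.86 and 1.65 CPM with baicalein, against 1.18 and 0.656 CPM with saline. The groups did not overlap, but saline 1 and saline 2 differed more from each other than saline 1 did from baicalein 2. The log2 fold change was 0.92 (SE 0.50, 95% interval -0.22 to 2.05, adjusted p = 0.261, edgeR), with a ratio of 1.40 within the pair with muscle transcripts and 2.83 in the other pair. Fpr2 has close relatives in the mouse formyl peptide receptor family, and the sources do not say how reads shared between copies were counted. In all, 4 of the 5 tested genes had both baicalein livers above both saline livers in CPM, a pattern found in 29.7% of all tested genes. Cd80 was among these 4, and its test depended on its baicalein values.

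Irf5 (ENSMUSG00000029771, chromosome 6, 29526624 to 29541870) encodes a transcription factor that drives inflammatory cytokine genes downstream of Toll-like receptors. It was the most evenly expressed of the 5. Its counts were 399 and 484 in the baicalein livers, against 420 and 306 in the saline livers, which gave 27.4 and 24.1 CPM with baicalein, against 24.7 and 22.3 CPM with saline. The groups overlapped. The log2 fold change was 0.13 (SE 0.12, 95% interval -0.15 to 0.41, adjusted p = 0.527, edgeR), so the interval leaves no room for a rise of the size estimated for Cd38. The ratio was 0.978 within the pair with muscle transcripts and 1.23 in the other pair.

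**Figure D2:**
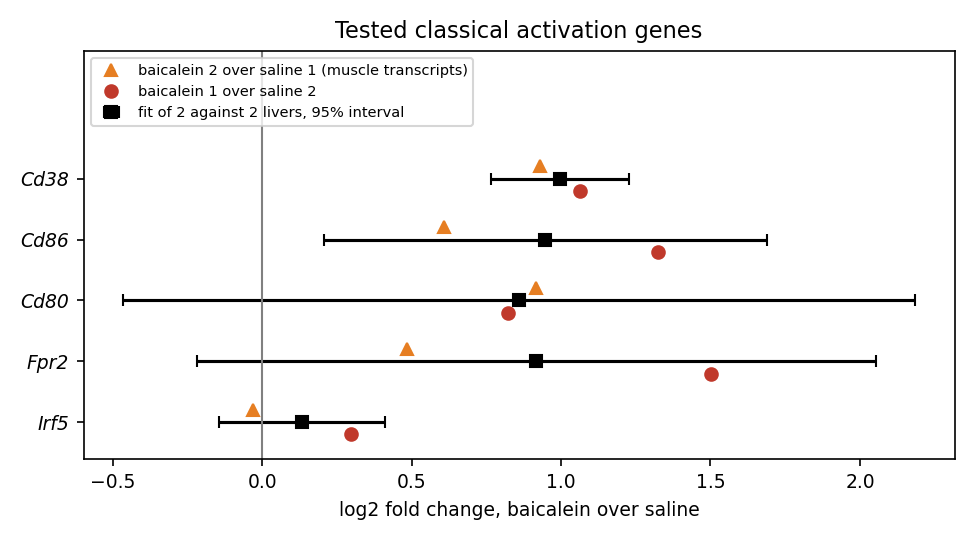
Log2 fold change of baicalein over saline (horizontal axis) for the 5 tested genes; black squares with bars give the fit of 2 against 2 livers and its 95% interval, triangles the log2 CPM ratio of the pair with muscle transcripts and circles that of the other pair. For Cd38 the pairs lie at 0.93 and 1.06, close to the fit at 1.00, while for Cd86 they lie at 0.61 and 1.32.

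The cytokine genes were at the edge of detection. Tnf (ENSMUSG00000024401, chromosome 17, 35418357 to 35420983), encoding tumor necrosis factor, was the fullest of them, with 8 and 10 counts in the baicalein livers, against 8 and 4 in the saline livers. Its summed rate was 1.42 times as high with baicalein, with a 95% counting interval of 0.646 to 3.23. Il6 (ENSMUSG00000025746, chromosome 5, 30218112 to 30224979), encoding interleukin 6, had 0 and 0 counts in the baicalein livers, against 3 and 1 in the saline livers. The exact 95% counting interval of its rate ratio, baicalein over saline, was 0 to 1.43 and so took in no change. A count of 0 over a group allows up to 3 counts. Il12b (ENSMUSG00000004296, chromosome 11, 44290890 to 44304860), encoding the shared subunit of interleukins 12 and 23, had 1 and 2 counts in the baicalein livers, against 0 and 0 in the saline livers, and no fold is given because neither group exceeded that limit. The limit was 0.0896 CPM with baicalein and 0.0948 with saline. Counting intervals and limits compare these libraries only and cover counting error, not the spread between livers.

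The enzyme genes differed more between the livers of a group than between the groups. Nos2 (ENSMUSG00000020826, chromosome 11, 78811613 to 78851080) encodes the inducible nitric oxide synthase of classically activated mouse macrophages, and its counts were 0 and 10 in the baicalein livers, against 11 and 3 in the saline livers. Ptgs2 (ENSMUSG00000032487, chromosome 1, 149975782 to 149983978) encodes cyclooxygenase 2, the inducible prostaglandin synthase, and its counts were 0 and 9 in the baicalein livers, against 7 and 1 in the saline livers. For both genes the higher liver of each group was the liver with muscle transcripts (baicalein 2 and saline 1). The part of the muscle transcripts in these counts was not tested. The summed rate with baicalein over saline was 0.675 for Nos2 (95% counting interval 0.268 to 1.63) and 1.06 for Ptgs2 (0.364 to 3.17). When every gene with a read was fitted, none of the 5 sparse genes passed, their adjusted p running from 0.407 for Il6 to 0.983 for Ptgs2 (edgeR). At this depth a moderate change in any of them was not detectable.

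In whole liver, more cells of a type and more RNA per cell cannot be told apart, and the levels of macrophage markers differed between the groups. The 8 macrophage markers (Adgre1, Csf1r, Cd68, Lyz2, C1qa, C1qb, C1qc and Mpeg1) summed to 805 and 722 CPM in the baicalein livers, against 507 and 449 CPM in the saline livers. Of them 7 rose in the edgeR fit, Cd68 being the exception (log2 fold change 0.40, SE 0.12, adjusted p = 0.0665), and all 6 Kupffer cell markers (Clec4f, Vsig4, Timd4, Marco, Cd5l and Cd163) rose. The median log2 fold change was 0.64 over the macrophage markers and 1.03 over the Kupffer cell markers, where Cd38 gave 1.00. Kupffer cell markers ran from 0.46 (Clec4f) to 1.73 (Marco). DESeq2 also called 7 macrophage markers and 6 Kupffer cell markers higher, whereas limma-voom called 5 and 4. B cell and plasma cell markers summed to 19.2 and 17.7 CPM with baicalein, against 6.88 and 6.35 CPM with saline, with 1 of 6 called higher (Jchain). Dendritic cell markers summed to 14.1 and 13.6 CPM with baicalein, against 10.7 and 12.3 CPM with saline, with 0 of 4 tested called by edgeR, 0 by DESeq2 or limma-voom, and 1 at an unadjusted p below 0.05 (Clec9a). No defining marker of these cell types was at 0 in all livers. The part of these markers in the result for Cd38 was not tested.

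Counts were also set against the macrophage marker sum of the same liver. This division shifts every gene of a liver alike, so it keeps the ratios between genes and lowers every baicalein value relative to saline. Cd38 had 56.4 and 62.3 counts per 1000 macrophage marker counts in the baicalein livers, against 46.5 and 48.4 in the saline livers. Its groups did not overlap, but the share of all genes with this pattern on this scale was not computed. The ratio of the group means was 1.25 on this scale, where it was about 2 per library. Cd86 had 5.89 and 5.46 per 1000 with baicalein, against 5.10 and 4.23 with saline. Irf5 had 34.1 and 33.5 per 1000 in the baicalein livers, against 48.7 and 49.7 in the saline livers, a ratio of 0.686 that follows from the marker sums, since any gene level per library would move this way. Cd80 and Fpr2 overlapped between the groups on this scale. With the 6 Kupffer cell markers as the base instead, Irf5 had 43.3 and 44.2 per 1000 in the baicalein livers, against 69.0 and 71.2 in the saline livers, and Cd86 overlapped. Cd38 on that base had 71.7 and 82.3 per 1000 in the baicalein livers, against 65.8 and 69.4 in the saline livers. Baicalein 1 and saline 2 thus lay closer to each other than the baicalein livers did. These ratios describe a change of scale, without a test, and they say nothing of which cells held the transcripts.

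**Figure D3:**
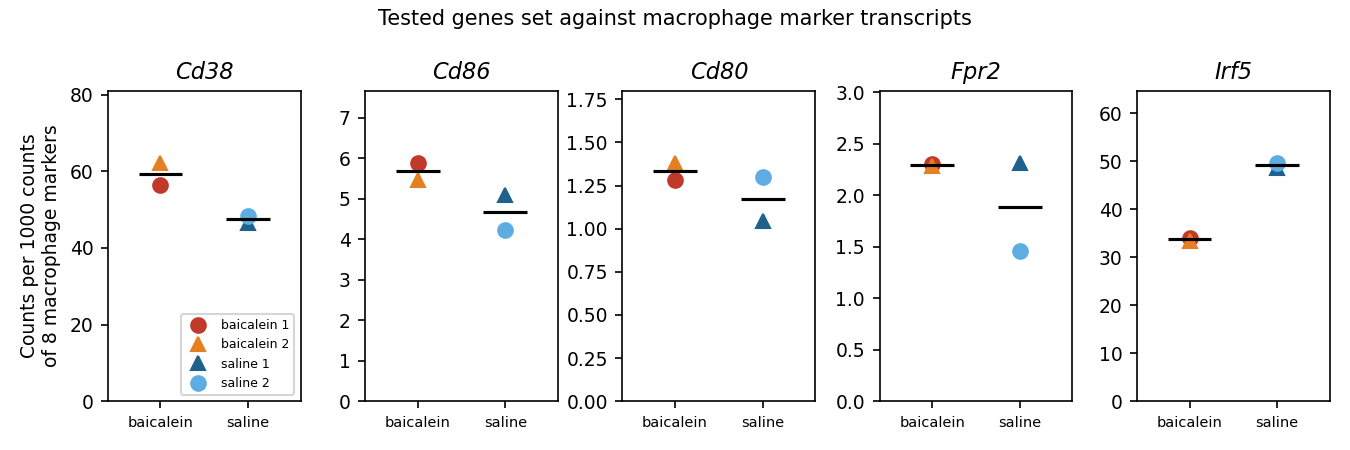
Counts of the 5 tested genes per 1000 counts of 8 macrophage markers (vertical axes from 0, each panel on its own scale) in the baicalein livers and saline livers; points are livers, triangles those with muscle transcripts, and bars group means. On this scale, which shifts all genes of a liver alike, Cd38 is higher in the baicalein livers (means 59.4 and 47.5 with baicalein and saline), Irf5 is lower (means 33.8 and 49.2), and Cd80 and Fpr2 overlap.

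The 3 genes whose profile over the 4 livers lay nearest to that of Cd38 were Oas1a, Lhfpl2 and Lilra5. Likeness was the distance between centred log2 CPM profiles over 4 livers, and it was 0.024, 0.058 and 0.062 log2 units. Oas1a, an interferon-induced gene whose product makes an antiviral messenger nucleotide, was at 12.2 and 12.3 CPM in the baicalein livers, against 6.29 and 5.91 CPM in the saline livers. Lilra5 was at 6.46 and 6.04 CPM with baicalein, against 3.17 and 2.99 CPM with saline. In all, 968 genes were called higher over these 4 livers.

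The rest of the pathway was read from 5 companion lists of 64 genes, of which 50 could be tested. Of these 50, 11 were called higher (22.0%) and 4 lower (8.0%), against 7.65% and 7.9% of all tested genes. Their median log2 fold change was 0.35, against 0.01 over all tested genes. Of the macrophage markers 87.5% were called higher, with a median of 0.64, and of the Kupffer cell markers 100%, with a median of 1.03. The lists were chosen with earlier results of these data known, so these shares are descriptions and test nothing. The companion genes were read in whole liver, and which cells held their transcripts was not tested. Signals and receptors moved both ways. Among 10 tested of 12, Tlr2, a receptor for bacterial lipoproteins, rose (log2 fold change 0.86, SE 0.23, adjusted p = 0.0389). Csf2rb, the signalling chain of the GM-CSF receptor, fell (-0.65, SE 0.13, adjusted p = 0.0116), as did Ifngr2, a chain of the interferon gamma receptor (-0.51, SE 0.12, adjusted p = 0.0198). Ifngr1, its other chain, gave 0.32 (SE 0.10, adjusted p = 0.0741). The ligands themselves were near zero, with 1 and 0 counts of Ifng in the baicalein livers, against 2 and 0 in the saline livers, and no count of Csf2 in any liver.

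Transcription factors and signal regulators also moved both ways, with 3 higher and 2 lower of 14 tested. Irf1, an interferon-induced activator of Nos2 in mouse macrophages, was at 56.7 and 55.8 CPM in the baicalein livers, against 34.6 and 33.9 CPM in the saline livers (log2 fold change 0.72, SE 0.09, adjusted p = 0.00103). Irf8, a factor of the monocyte and macrophage lineage, rose (0.70, SE 0.13, adjusted p = 0.00740), and so did Nfkbiz, a nuclear cofactor of NF-kB (0.72, SE 0.17, adjusted p = 0.0221). Rela, the p65 subunit of NF-kB, fell (-0.41, SE 0.10, adjusted p = 0.0254). Socs3, an inhibitor of interleukin 6 signalling that STAT3 induces, fell too (-0.78, SE 0.16, adjusted p = 0.0114). All of these values are from the edgeR fit over the whole table.

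Among 15 tested of 21 other products, 4 rose and 0 fell, and DESeq2, limma-voom and an unadjusted p below 0.05 also gave 0 lower. Gbp2, an interferon-induced GTPase of host defence, was at 14.6 and 18.3 CPM in the baicalein livers, against 6.41 and 6.27 CPM in the saline livers (log2 fold change 1.38, SE 0.17, adjusted p = 9.87e-04). Cybb, the catalytic subunit of the phagocyte NADPH oxidase, rose by 0.93 (SE 0.14, adjusted p = 0.00308) and Cxcl1, a neutrophil chemokine, by 0.87 (SE 0.17, adjusted p = 0.0110). Slc7a2, a transporter of arginine that hepatocytes also express, stood at 668 and 634 CPM in the baicalein livers, against 481 and 516 CPM in the saline livers (0.38, SE 0.10, adjusted p = 0.0347). Of 5 tested other surface genes Cd274, encoding the inhibitory ligand PD-L1, rose (0.91, SE 0.25, adjusted p = 0.0394). Fcgr1 (0.65, SE 0.22, adjusted p = 0.0839), Ccr7 (1.11, SE 0.55, adjusted p = 0.226) and Cd40 (0.49, SE 0.50, adjusted p = 0.572) did not pass.

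Direct partners of the 10 genes gave 2 calls among 6 tested of 10. Il6ra, the receptor chain that binds interleukin 6, was at 86.2 and 71.1 CPM in the baicalein livers, against 31.3 and 38.3 CPM in the saline livers (log2 fold change 1.18, SE 0.14, adjusted p = 0.00179). Il6st, the shared signalling chain, gave 0.24 (SE 0.10, adjusted p = 0.141). Ptgs1, the constitutive counterpart of Ptgs2, was at 26.5 and 27.8 CPM in the baicalein livers, against 15.6 and 13.6 CPM in the saline livers (0.90, SE 0.12, adjusted p = 0.00198). Thus Ptgs1 was measured well and its inducible relative Ptgs2 hardly at all. Fpr1, the relative of Fpr2, gave 0.73 (SE 0.24, adjusted p = 0.0789).

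**Figure D4:**
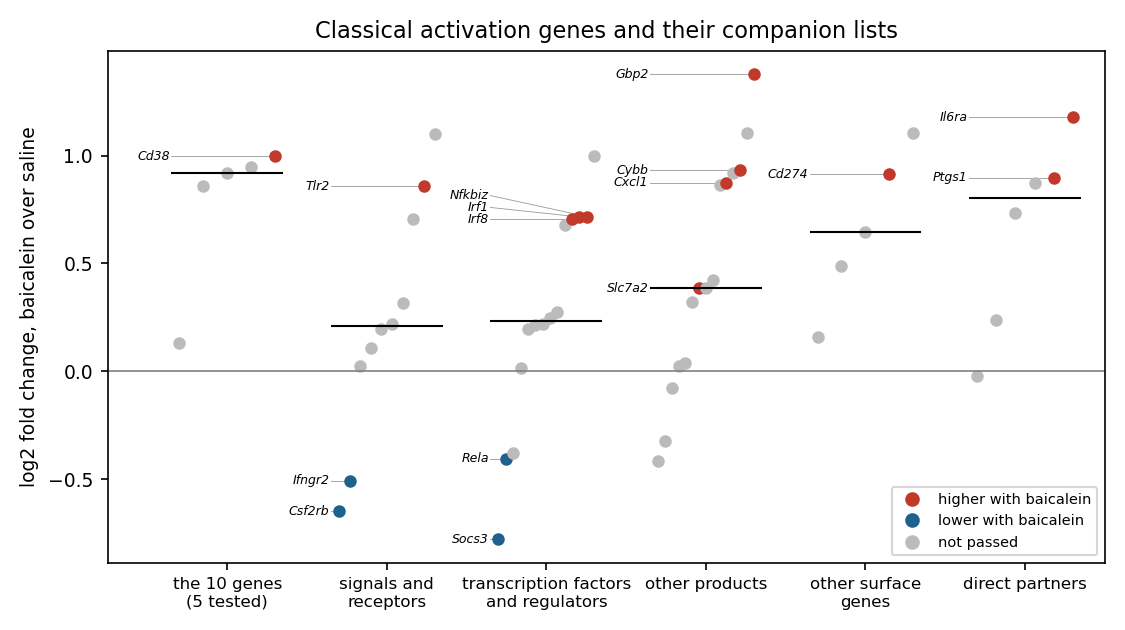
Log2 fold change of baicalein over saline (vertical axis) for the tested genes among the 10 and in 5 companion lists; each point is a gene, red higher and blue lower at adjusted p below 0.05, grey not passed, and the bars are medians. The medians of the companion lists run from 0.21 for signals and receptors to 0.80 for direct partners, and the 4 genes that fell are Csf2rb, Ifngr2, Socs3 and Rela.

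Leaving out single livers thinned the companion calls, while Cd38 was called each time (adjusted p at most 0.00996). Irf1, Gbp2, Cybb, Il6ra and Ptgs1 were also called whichever liver was left out. Tlr2, Rela, Nfkbiz and Cd274 lost their calls without each of the 4 livers in turn, with adjusted p up to 0.283 (Tlr2). DESeq2 did not call Tlr2, Nfkbiz or Cd274, nor limma-voom Tlr2, Ifngr2, Rela, Slc7a2 or Cd274. Ifngr2 was not called without saline 1, baicalein 1 or baicalein 2, and Slc7a2 not without saline 1, saline 2 or baicalein 1 (up to 0.374). Csf2rb and Socs3 were not called without saline 2 or baicalein 2, Cxcl1 without saline 2 or baicalein 1, and Irf8 without baicalein 1 or baicalein 2. Each of these fits leaves 1 group with a single liver, which is assumed to vary like the livers of the other group, and has fewer degrees of freedom. They are therefore a weak guide to how stable a call is, and a lost call does not show that a difference was absent. Csf2rb has a near-identical mouse copy, so its value is uncertain.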

How the data were processed

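Per the labels' protocols, a SMARTer mRNA kit was used for the libraries. The submitters' processing notes name mm10 as genome build; aligner and counter: not given in the sources used here. Whole-number read counts per gene and FPKM values (counts scaled to gene length and depth) were deposited by the authors. Columns were matched to livers by title. For the 10 genes the deposited FPKM and counts agree to within 0.00388%. None of the 10 positions in the table equals that of GENCODE M21 (mm10), so gene positions are as deposited, on an unnamed build; promoter positions are RefSeq's on GRCm38.p6.

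Genes passing filterByExpr (12657 of 21959) were scaled by TMM and fitted by edgeR's robust quasi-likelihood test (version 4.0.16, R 4.3.3), two-sided, baicalein against saline. Calls needed a Benjamini-Hochberg adjusted p below 0.05 over those genes. Each SE was derived from the log2 fold change and its quasi-likelihood F statistic, and the 95% interval from that SE and a t distribution. CPM use TMM-scaled totals. The fit was also run on simulated counts with the same dispersion for every gene, a simpler setting than these data. The outcome is not given here. Intervals for sparse genes are exact conditional binomial ones. Named genes are the 10, all called companions and the 4 of smallest p in each companion list, some of the cell markers, and the 3 profiles nearest to a called gene. Genes and lists were chosen with earlier results of these data known. Alternatives were median-of-ratios size factors, DESeq2 1.42.0, limma-voom (limma 3.58.1), no filter, a mean CPM of at least 1, log2(FPKM + 0.1) with limma, a replicate block and each liver left out.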

Additional observations from a re-analysis of the deposited data

How the results depend on the processing

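Cd38 was called under all 12 alternatives fitted for it (log2 fold change 0.93 to 1.06, adjusted p at most 0.00996), and no tested gene of the 10 changed sign. Cd80, Fpr2 and Irf5 were called under none, with log2 fold changes of 0.63 to 0.92, 0.56 to 1.40 and 0.03 to 0.23; a mean CPM of at least 1 removed Cd80. Among all tested genes 1968 were called; leaving out 1 liver gave 1056 to 1328, 7 to 9 against 15 among the companion genes, and 1 among the 10 each time. With the replicate number as a block 1132 genes, 8 companion genes and 1 of the 10 were called. Same-numbered livers deviated from their group means in opposite directions (correlation -0.77). With 2 livers a group this is a single value, and muscle transcripts lay in baicalein 2 and saline 1. The correlation therefore cannot show whether the numbers pair the livers. Crosswise pairs, chosen after seeing the data, match the livers by muscle transcripts. They gave 3498 genes, 24 companion genes and 2 of the 10 (Cd38 and Cd86). The cause of these moves was not tested, beside the fewer samples of the fits that leave a liver out. With 2 livers a group and 30 reads or fewer per gene, depth limits Nos2, Ptgs2, Tnf, Il6 and Il12b.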

Other observations

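Other cell types were read from marker lists as well. All 6 sinusoidal endothelial markers rose, among them Ptprb (log2 fold change 0.90, SE 0.12, adjusted p = 0.00155) and Stab2, a scavenger receptor gene (0.59, SE 0.09, adjusted p = 0.00353). DESeq2 also called 6 of these endothelial markers higher, whereas limma-voom called 4. Of 6 stellate cell markers 3 rose, with Lrat, which esterifies retinol for storage, at 39.1 and 27.5 CPM in the baicalein livers, against 5.11 and 7.15 CPM in the saline livers. The other 2 that rose were Reln and Pdgfrb. Among the stellate cell markers DESeq2 called 3 higher (Lrat, Reln and Rgs5, not Pdgfrb) and limma-voom 2 (Lrat and Reln). Des in this list was highest in the livers with muscle transcripts, with 91 and 2033 counts in baicalein 1 and 2, against 2565 and 36 in saline 1 and 2. The 5 tested bile duct markers did not move together. Spp1 (-1.16, SE 0.11, adjusted p = 2.58e-04) and Sox9 (-1.16, SE 0.22, adjusted p = 0.00912) fell, while Krt19, Krt7 and Epcam had positive log2 fold changes of 4.37, 2.84 and 1.68 that did not pass (adjusted p = 0.437, 0.324 and 0.576). Baicalein 2 stood apart for these 3, with 23 and 1448 counts of Krt19 in baicalein 1 and 2, against 39 and 17 in saline 1 and 2. A single gene rose in each of the monocyte (Plac8), neutrophil (Ltf) and T and NK cell (Gzma) lists, of which DESeq2 and limma-voom did not call Gzma. Ltf had 21 and 42 counts in the baicalein livers, against 3 and 1 in the saline livers. It reached the level needed for a test in the baicalein livers alone, so its place among the tested genes is tied to its direction. The same holds for Ngp, a neutrophil marker called by DESeq2, with 58 and 15 counts with baicalein, against 3 and 0 with saline. Gzma, with 43 and 37 against 11 and 8 counts, reached that level in saline 1 but not in saline 2. Of the 6 hepatocyte markers Alb rose, though not with limma-voom, and the median of the list was -0.02, with Apoa1 at -0.49 (SE 0.15, adjusted p = 0.0578) and Fgb at -0.25 (SE 0.11, adjusted p = 0.166). DESeq2 called 2 hepatocyte markers higher and 2 lower. In the muscle list 0 of 6 markers were called by edgeR, DESeq2 or limma-voom, or passed an unadjusted p of 0.05. These adjusted p-values are from the edgeR fit.

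Of the 14 companion genes too sparse to test, Cxcl2, a neutrophil chemokine gene, had 0 and 3 counts in the baicalein livers, against 21 and 5 in the saline livers. Gpr18, used with Cd38 and Fpr2 as a marker of classical activation in mouse macrophages, had 4 and 14 counts in the baicalein livers, against 3 and 4 in the saline livers. Acod1, which makes itaconate in activated macrophages, had 6 and 9 counts with baicalein, against 2 and 5 with saline. These values carry no test.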
